A study of Mus musculus with 12 samples.

Results

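The Dlk1-Dio3 region of mouse chromosome 12 holds 3 long noncoding transcripts, Meg3, Rian and Mirg, and 3 protein-coding genes, Dlk1, Rtl1 and Dio3. These 6 genes were followed in Drosha-deficient mouse embryonic stem (ES) cells and in wild-type ES cells, in 3 RNA fractions. Members were found by gene name in the deposited tables, each of which has 36883 rows. Of the 18 member rows over the 3 tables, 16 carry the gene's name alone. The other 2 are the Rian rows of mRNA and short RNA, where the same row also carries 12 other names, 5 of them small nucleolar RNAs (snoRNAs) in RefSeq.

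Of the 12 samples in the series, 6 RNA libraries were used, 1 for each genotype in mRNA, in long RNA and in short RNA. Not analysed here were 3 methylation samples and the 3 RNA libraries made from Dnmt1-deficient cells. The labels of the RNA samples give the genotype but no strain or clone. Those of the DNA samples give AB1 (129Sv/Ev) cells as wild type and as the parent of the Drosha-deficient cells. Which part of Drosha was disrupted, and whether the cells are 1 clone, is not stated in them. All cells grew in serum medium with leukemia inhibitory factor. Which long RNA library belongs to which labelled sample rests on elimination, since the labels speak of total RNA.

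Values are the authors' FPKM, that is, fragments per kb of transcript and scaled to the size of the library. Each genotype has 1 library in a fraction and no replicate, so no error between cultures and no test can be given, and each difference compares 2 libraries. The log2 difference is that of FPKM + 1, Drosha-deficient minus wild type, which understates differences of weakly expressed genes. A row is said to have entered if its status in the table was OK and either library had 1 FPKM or more. It was called higher or lower at a log2 difference of 1 or more in size (2-fold). The 3 tables were normalized separately, so levels of different fractions stand side by side and are not compared.

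The region is imprinted. Dlk1, Rtl1 and Dio3 are expressed from the chromosome of paternal origin, whereas Meg3, Rian and Mirg are transcribed in the same direction from the maternal one, and the noncoding transcripts carry large groups of snoRNAs and microRNAs. Drosha is the nuclear enzyme that cuts microRNA hairpins out of such primary transcripts, and Dicer then trims the hairpins to mature microRNAs. In mouse pluripotent stem cells Meg3 and its neighbours are known markers of how well the imprint of the region is kept.

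The label of the cells was checked on Drosha, whose row was 6.77-fold lower in Drosha-deficient mRNA (6.22 FPKM, against 42.1 FPKM in wild type) and 4.87-fold lower in long RNA. Library size, estimated from the FPKM that 1 fragment gave in olfactory receptor rows of 850 to 1200 bp, was between 18400000 and 24300000 fragments in mRNA and long RNA. In short RNA the estimate, from all rows of that length with a single name, was 2960000 in Drosha-deficient and 2660000 in wild-type cells, and it is rougher there, since a smaller share of the rows came out at whole fragments. All 8 ES cell markers entered in mRNA and 0 were called, with a summed level of 2180 FPKM in Drosha-deficient and 2132 FPKM in wild-type cells. Among fibroblast markers 14 entered in each of mRNA and long RNA, and Drosha-deficient cells were lower for 8 and for 7 of them. Their summed mRNA level was 284 FPKM in Drosha-deficient and 497 FPKM in wild-type cells, of 17 markers listed. Most of this sum came from Fn1 and Vim, which were called in neither direction in mRNA and are named after their values were seen. Fn1 had 179 FPKM in Drosha-deficient and 209 FPKM in wild-type mRNA, and Vim 90.5 FPKM and 154 FPKM. Lum, a proteoglycan of connective tissue named here for its zeros after its values were seen, was listed at 0 in wild-type mRNA and in Drosha-deficient long RNA, and no other fibroblast marker was at 0. Of the other marker lists in mRNA, 2 of 5 primitive endoderm, 6 of 8 trophoblast and 3 of 4 mesoderm markers were lower, and 8 of 10 neural and epiblast markers were higher. The trophoblast and mesoderm counts share Hand1, which was lower, and Eomes, called in neither direction, both named after their values were seen. In long RNA 1 of 4 primitive endoderm, 4 of 5 trophoblast and 2 of 2 mesoderm markers were lower. There 3 of 9 neural and epiblast markers were higher. Of all rows, 8.64% were higher and 7.93% lower in mRNA, and 6.26% and 6.89% in long RNA.

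The 3 host transcripts differed between the genotypes in 3 different ways. In mRNA, Mirg and the Rian row were about 3-fold higher in Drosha-deficient cells, and Meg3 was lower without reaching the 2-fold call. In long RNA Mirg alone of the 3 was called, again higher. In short RNA the Mirg row was about 80-fold lower, and Meg3 and the Rian row were called in neither direction. By exact name, 1 of the 3 member rows that entered in mRNA was higher (Mirg) and 0 were lower, beside 8.64% of all rows higher and 7.93% lower. In long RNA 1 of 3 was higher (Mirg) and 0 lower, beside 6.26% higher and 6.89% lower of all rows, and in short RNA 1 of 2 was lower (Mirg), beside 14.8% higher and 18.4% lower. With so few rows these counts describe single genes and are not a share that can be set against the background.

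**Figure D1:**
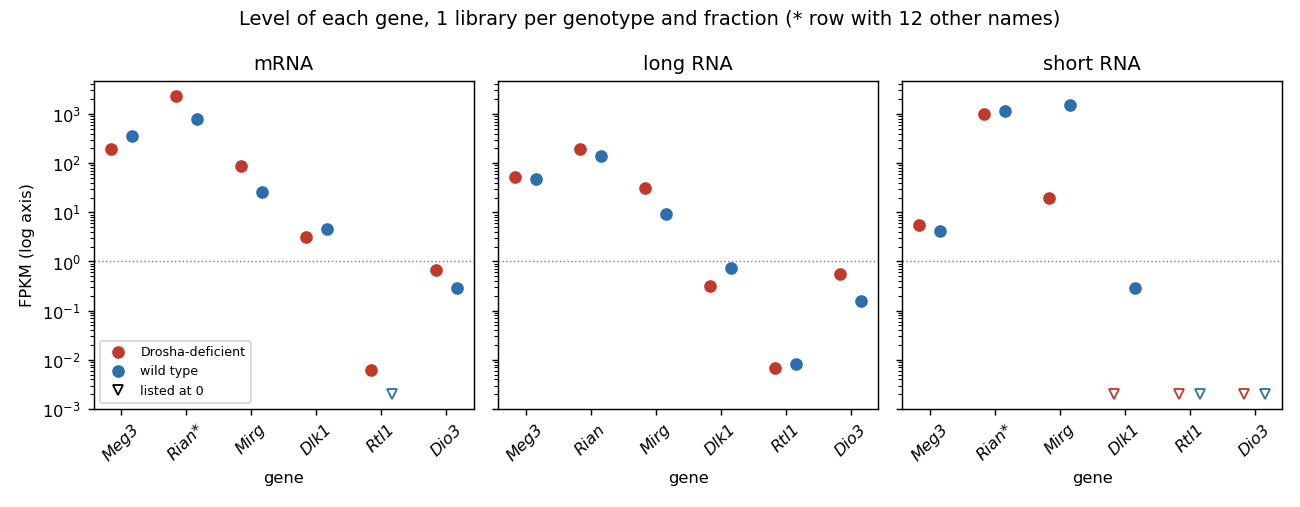
FPKM (log axis) of the 6 genes in mRNA, long RNA and short RNA, with 1 point per library, Drosha-deficient left of wild type. Triangles stand for rows listed at 0, the dotted line for the 1 FPKM minimum, and Rtl1 lies below 0.01 FPKM in every library.

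Meg3 is the long noncoding RNA at the head of the maternally expressed transcripts, and in other settings its expression is used as a readout of the imprint of the whole region. Its row spans chr12:109541001-109571726 (mm10). The RefSeq start window is shown because transcription of the noncoding strand begins there. It covers chr12:109540746-109541045, + strand, in GRCm38.p6, 250 bases before to 50 after the start, and capitals mark 4 motifs that were searched for on both strands.
Meg3 start window: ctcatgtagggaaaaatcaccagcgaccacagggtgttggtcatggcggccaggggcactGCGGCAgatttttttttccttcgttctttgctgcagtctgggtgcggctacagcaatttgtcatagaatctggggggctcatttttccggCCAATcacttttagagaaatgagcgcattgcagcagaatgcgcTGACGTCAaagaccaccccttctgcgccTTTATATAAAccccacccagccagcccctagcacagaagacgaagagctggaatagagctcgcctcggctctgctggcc
The motifs were the TATA box TATAAA, the CCAAT box CCAAT, the cAMP response element TGACGTCA and TGCCGC, the hexamer that ZFP57, a factor that keeps imprints, binds when methylated. Positions are those of a match's first base relative to the start. TATAAA lay at -25 and, on the opposite strand, at -29, and these matches overlap. CCAAT lay at -100, TGACGTCA, which reads the same on both strands, at -57, and the opposite-strand TGCCGC at -190. Of 32851 RefSeq windows of the same length, 13.6% hold TATAAA, 37.4% CCAAT, 1.79% TGACGTCA and 11.6% TGCCGC. The window has 13 CpG, against a median of 7 over all windows. A second RefSeq window of Meg3 and the windows of Rian and Dlk1 held none of these motifs. The Dio3 window held TATAAA at -31 and CCAAT at -48 and, on the opposite strand, at -125, with 25 CpG. A match is a string of letters and shows no binding.

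In mRNA Meg3 had 191 FPKM in Drosha-deficient and 353 FPKM in wild-type cells, so wild type was 1.85-fold higher. The log2 difference of -0.88 stayed under the 2-fold call, and 10.2% of all rows that entered lay below it. In long RNA the order was the other way and the gap small, 52.6 FPKM in Drosha-deficient and 48.3 FPKM in wild-type cells (log2 difference 0.12). In short RNA Meg3 had 5.60 FPKM in Drosha-deficient and 4.11 FPKM in wild-type cells (0.37). Among the rows above 0 Meg3 stood at percentile 98.3 in Drosha-deficient and 99.3 in wild-type mRNA, and at percentile 95.4 in Drosha-deficient and 94.6 in wild-type long RNA. The log2 difference in mRNA minus that in long RNA was -1.001. The 2 microRNA hairpins that RefSeq places inside the Meg3 row, Mir1906-1 and Mir770, have no row of their own in the tables.

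Beside Meg3, the 8 fibroblast markers lower in Drosha-deficient mRNA include Col1a2, a fibrillar collagen chain (0.116 FPKM in Drosha-deficient and 19.6 FPKM in wild-type cells), and Acta2, smooth muscle actin (1.41 FPKM in Drosha-deficient and 28.4 FPKM in wild-type cells). Dcn, a fibroblast marker named after its values were seen, went the other way but stayed under the 1 FPKM minimum. It had 0.999 FPKM in Drosha-deficient and 0.0752 FPKM in wild-type mRNA, and 0.967 FPKM and 0.0296 FPKM in long RNA. In long RNA 7 fibroblast markers were lower and Meg3 was called in neither direction. Dlk1 had 0.313 FPKM in Drosha-deficient and 0.747 FPKM in wild-type cells there and did not enter. Fewer cells of a type and less RNA per cell cannot be told apart in bulk RNA, and the part of either in the Meg3 and Dlk1 values was not tested.

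Rian is the next transcript, a host of many snoRNAs of the region, and its row spans chr12:109603882-109661716. In mRNA the row had 2325 FPKM in Drosha-deficient and 791 FPKM in wild-type cells, 2.94-fold higher in Drosha-deficient cells (log2 difference 1.55). In long RNA, where the row is named Rian alone, it had 191 FPKM in Drosha-deficient and 138 FPKM in wild-type cells, 1.39-fold higher and not called (0.47). In short RNA the merged row had 1010 FPKM in Drosha-deficient and 1168 FPKM in wild-type cells (-0.21). RefSeq also places 3 microRNA hairpins inside the row, Mir341, Mir1188 and Mir370, which have no row of their own. The difference in mRNA exceeded that in long RNA by 1.09 on the log2 scale. Because the mRNA row merges Rian with 12 other names, this value is not that of Rian alone, and whether the long RNA row holds the same transcripts is not given.

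Of 13 rows under 130 bp between Meg3 and Mirg that are no microRNA rows, 8 are snoRNAs in RefSeq, and all 8 entered in mRNA. There 7 were higher in Drosha-deficient cells and 0 lower, beside 8.64% of all rows higher and 7.93% lower. Their median was 2.78 on the log2 scale, with a summed level of 407 FPKM in Drosha-deficient against 51.7 FPKM in wild-type cells. Gm25856, Gm25854 and Gm22205 were at 0 in wild-type mRNA, so their calls follow from the rule and their sizes depend on the pseudocount. AF357428 (179 FPKM in Drosha-deficient mRNA) and AF357341 (119 FPKM) hold most of the sum. These 5 rows are named after their values were seen. In long RNA 1 of the same 8 was higher and 1 lower, with a median of -0.12 and a sum of 1011 FPKM in Drosha-deficient and 1179 FPKM in wild-type cells. In short RNA all 8 were listed at 0. The part of the snoRNAs merged into the Rian row in its mRNA difference was not tested. Outside the region, 1 of 14 hosts of other snoRNAs was higher in mRNA and 4 were lower (median log2 difference -0.49), and 0 of 14 were called in long RNA (0.00).

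Mirg is the last of the 3 host transcripts and carries the end of the microRNA cluster. Its row spans chr12:109729764-109749460, whereas RefSeq starts the gene at 109734981. RefSeq places 14 hairpins inside the row that have no row of their own. The RefSeq start window of Mirg is shown because it contains 2 such hairpins, Mir668 and Mir485, in capitals, and Mir485 ends 7 bases before the start. It covers chr12:109734731-109735030, + strand, in GRCm38.p6.
Mirg start window: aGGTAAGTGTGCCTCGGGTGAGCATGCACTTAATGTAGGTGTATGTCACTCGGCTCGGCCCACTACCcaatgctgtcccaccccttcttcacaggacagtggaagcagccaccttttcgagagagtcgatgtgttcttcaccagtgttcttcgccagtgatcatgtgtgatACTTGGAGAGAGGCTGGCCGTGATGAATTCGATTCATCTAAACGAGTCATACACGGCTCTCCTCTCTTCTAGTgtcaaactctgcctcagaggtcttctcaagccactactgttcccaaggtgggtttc
Of the 4 motifs above, CCAAT alone was found in it, at -184. The hairpins give 26 mature sequences in RefSeq with 25 different seeds, the bases 2 to 8 that pair with targets. A set of 5 is given with the seed in capitals, among them miR-453 and miR-496a-5p, the only pair of Mirg with a shared seed.
miR-134-5p (chr12:109734145-109734166, + strand): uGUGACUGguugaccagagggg
miR-485-3p (chr12:109734946-109734967, + strand): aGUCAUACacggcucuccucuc
miR-453 (chr12:109735669-109735692, + strand): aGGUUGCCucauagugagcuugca
miR-496a-5p (chr12:109739132-109739152, + strand): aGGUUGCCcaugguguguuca
miR-410-3p (chr12:109743764-109743784, + strand): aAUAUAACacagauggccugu

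In mRNA Mirg had 89.1 FPKM in Drosha-deficient and 25.6 FPKM in wild-type cells, 3.49-fold higher in Drosha-deficient cells. In long RNA it had 30.6 FPKM in Drosha-deficient and 9.45 FPKM in wild-type cells, 3.24-fold higher. The log2 differences, 1.76 and 1.60, in mRNA and long RNA lay at percentiles 97.3 and 97.5 of the rows that entered, and differed by 0.17 between both fractions. In short RNA the row had 19.3 FPKM in Drosha-deficient and 1541 FPKM in wild-type cells, 79.7-fold lower in Drosha-deficient cells (log2 difference -6.25). The short RNA difference was thus 8.01 below that in mRNA and 7.84 below that in long RNA. Whether the short fragments counted on this row are mature microRNAs, hairpins or other pieces is not given by the table.

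**Figure D2:**
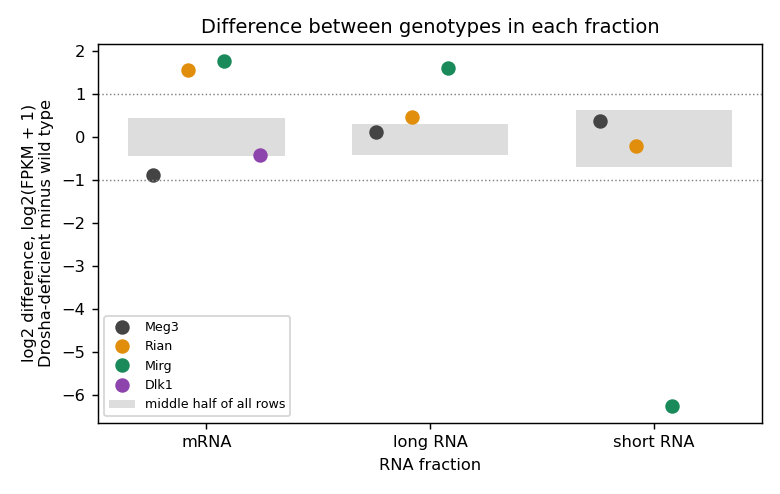
Log2 difference of FPKM + 1, Drosha-deficient minus wild type, for the genes that entered in each RNA fraction (points), with grey bars from the lower to the upper quartile of all rows and dotted lines at the 2-fold call. Mirg lies above the call in mRNA (1.76) and long RNA (1.60) and at -6.25 in short RNA, while Meg3 stays inside the dotted lines in each fraction.

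Of the 2451 rows that entered in mRNA and short RNA, 52 (2.12%) were higher in mRNA and lower in short RNA, and 15 of 2426 rows (0.618%) were higher in mRNA and in long RNA and lower in short RNA. Mirg is 1 of these 15. Others among them, named after their values were seen, are Mir17hg, from which the miR-17 cluster is cut, Nfyc, a subunit of the CCAAT-binding factor NF-Y whose gene holds a microRNA, and Mir136 and Mir3070a of the region itself. The 15 also hold Rab27a and mt-Tq, a mitochondrial transfer RNA, so the pattern is not limited to microRNA genes and their hosts. For mt-Tq the log2 differences were 2.74 in mRNA, 1.33 in long RNA and -1.41 in short RNA. Of 29 microRNA hosts outside the region that were found, 27 entered in mRNA. There 4 were higher and 3 lower, and the median was 0.24 on the log2 scale. In short RNA 14 of the 29 entered and all 14 were lower (median -4.98), beside 14.8% of all rows higher and 18.4% lower. Some of the 14 entered through wild type alone, such as Nfyc at 0.693 FPKM in Drosha-deficient and 52.2 FPKM in wild-type cells. With rows of any status except failed ones 22 entered, of which 15 were lower, 6 were called in neither direction and 1, H19, an imprinted noncoding RNA named after its values were seen, was higher (1.26 FPKM in Drosha-deficient, listed at 0 in wild-type cells). The 14 of OK status also entered in mRNA, and 3 of them, Mir17hg, Nfyc and Mest (the last also named after its values were seen), were higher there. Mir17hg had 69.7 FPKM in Drosha-deficient and 9.09 FPKM in wild-type mRNA. Igf2, an imprinted growth factor gene with a microRNA in it, had less mRNA, at 1.08 FPKM in Drosha-deficient and 60.9 FPKM in wild-type cells, as did Copz2, a coat protein gene, at 8.14 FPKM in Drosha-deficient and 20.1 FPKM in wild-type cells.

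**Figure D3:**
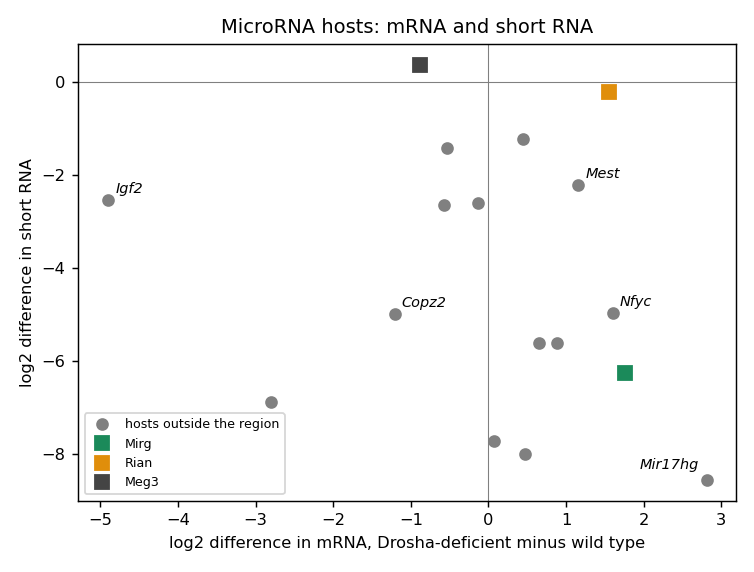
Log2 difference in mRNA (horizontal) and in short RNA (vertical), Drosha-deficient minus wild type, for the 14 microRNA hosts outside the region that entered in both (circles) and for Mirg, the Rian row and Meg3 (squares). All 14 circles lie below 0 on the vertical axis, and Mirg lies at 1.76 and -6.25. Some circles, such as Nfyc, entered in short RNA through wild type alone.

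Ratios of 2 host transcripts within a library do not depend on how the library was scaled. In mRNA the ratio of Mirg to Meg3 was 0.466 in Drosha-deficient and 0.0723 in wild-type cells, a 6.44-fold difference. In long RNA it was 0.582 in Drosha-deficient and 0.196 in wild-type cells, 2.98-fold. The ratio of the Rian row to Meg3 was 12.1 in Drosha-deficient and 2.24 in wild-type mRNA, 5.43-fold, whereas in long RNA it was 3.63 in Drosha-deficient and 2.85 in wild-type cells, 1.28-fold. Between Mirg and the Rian row the ratio differed little in mRNA, 0.0383 in Drosha-deficient and 0.0323 in wild-type cells (1.19-fold), and more in long RNA, 0.160 in Drosha-deficient and 0.0687 in wild-type cells (2.33-fold). In long RNA, where Rian is named alone, the Drosha-deficient over wild-type fold was 1.09 for Meg3, 1.39 for Rian and 3.24 for Mirg. This is also the order of the genes on the chromosome, but these are 3 values from 1 pair of libraries. A trend with position was not tested.

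**Figure D4:**
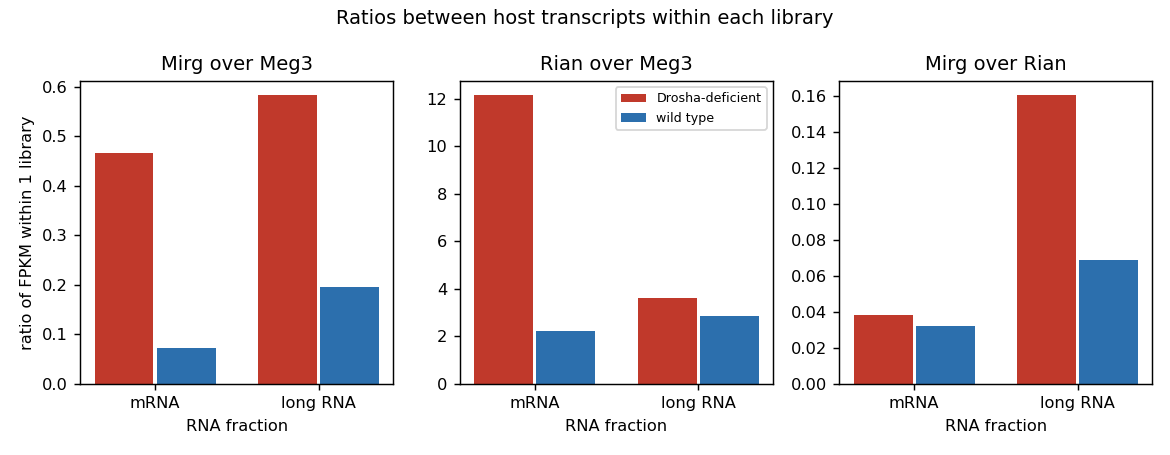
Ratio of the FPKM of 2 host transcripts within 1 library, in mRNA and long RNA, Drosha-deficient (left bar) and wild type (right bar), with a separate vertical axis from 0 in each panel. The Mirg to Meg3 ratio is higher in Drosha-deficient cells in both fractions (0.466 and 0.582, against 0.0723 and 0.196 in wild-type cells).

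Dlk1 encodes a transmembrane ligand related to the Notch ligands, and its row spans chr12:109452823-109463336. It had 3.18 FPKM in Drosha-deficient and 4.58 FPKM in wild-type mRNA (log2 difference -0.42), a level at percentile 52.7 of the rows above 0 in Drosha-deficient and 56.7 in wild-type cells. In long RNA it had 0.313 FPKM in Drosha-deficient and 0.747 FPKM in wild-type cells and did not enter. In short RNA it was listed at 0 in Drosha-deficient and at 0.287 FPKM in wild-type cells, which is less than 1 fragment per kb. Wild type had the higher value in each fraction, and no difference was called. Of 23 Notch pathway genes that entered in mRNA 4 were higher and 0 lower, among them Dll1, a Notch ligand (18.7 FPKM in Drosha-deficient and 5.01 FPKM in wild-type cells). Dll1 was also the 1 gene of 22 that was higher in long RNA, at 11.1 FPKM in Drosha-deficient and 4.79 FPKM in wild-type cells.

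Rtl1 encodes a retrotransposon-derived protein needed for the fetal vessels of the mouse placenta, and its row spans chr12:109589194-109600330. It had 0.00608 FPKM in Drosha-deficient mRNA and was listed at 0 in wild-type mRNA. In long RNA it had 0.00682 FPKM in Drosha-deficient and 0.00820 FPKM in wild-type cells, and in short RNA both libraries were at 0. At less than 1 fragment per kb in each library, no difference in Rtl1 was detectable at this depth. The microRNAs opposite to Rtl1 lie on the maternally expressed antisense transcript and several are known in the mouse to direct cutting of Rtl1 RNA. Their mature sequences are given with the seed in capitals, 1 for each of the 6 hairpins in the span that have a row.
miR-431-5p (chr12:109590459-109590479, + strand): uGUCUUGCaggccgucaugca
miR-433-3p (chr12:109591781-109591802, + strand): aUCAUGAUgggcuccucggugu
miR-127-3p (chr12:109592888-109592909, + strand): uCGGAUCCgucugagcuuggcu
miR-434-3p (chr12:109594565-109594586, + strand): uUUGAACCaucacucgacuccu
miR-432 (chr12:109595006-109595028, + strand): uCUUGGAGuagaucagugggcag
miR-136-5p (chr12:109595331-109595352, + strand): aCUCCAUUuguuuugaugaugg

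While Rtl1 itself was close to 0, the 6 rows carried signal in 1 or both genotypes, except that Mir432 was listed at 0 in both short RNA libraries. Of the 6, 0 were at 0 in Drosha-deficient and 3 in wild-type mRNA, 0 in Drosha-deficient and 1 in wild-type long RNA, and 2 in Drosha-deficient and 1 in wild-type short RNA. In mRNA all 6 were higher in Drosha-deficient cells, at a median of 3.11 on the log2 scale, which for the 3 rows at 0 in wild type depends on the pseudocount, and a summed level of 155 FPKM in Drosha-deficient against 12.8 FPKM in wild-type cells. In long RNA 2 were higher and 3 lower, with sums of 164 FPKM in Drosha-deficient and 567 FPKM in wild-type cells. In short RNA all 5 that entered were lower, with sums of 841 FPKM in Drosha-deficient and 103591 FPKM in wild-type cells. Mir127 has the highest wild-type short RNA level of the 6, at 796 FPKM in Drosha-deficient and 74500 FPKM in wild-type cells. In mRNA Mir127 had 71.0 FPKM in Drosha-deficient and 3.13 FPKM in wild-type cells, and in long RNA 93.2 FPKM in Drosha-deficient and 402 FPKM in wild-type cells. On rows this short a few fragments give a high FPKM.

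Over the whole span from Dlk1 to Dio3 there are 53 rows besides the 6 genes. In mRNA 32 entered, of which 23 were higher and 7 lower. Among the 45 that entered in long RNA 9 were higher and 20 lower, and among 33 in short RNA 1 was higher and 32 lower. Of all rows, 8.64% were higher and 7.93% lower in mRNA, 6.26% and 6.89% in long RNA and 14.8% and 18.4% in short RNA. The 35 microRNA rows alone had summed mRNA levels of 219 FPKM in Drosha-deficient and 39.3 FPKM in wild-type cells, with 14 of 22 higher and 7 lower. Of the 35, 19 were listed at 0 in Drosha-deficient and 23 in wild-type mRNA. A row at 0 in 1 library that enters is called whatever its other value, so these mRNA counts partly follow from the rule. In short RNA their sum was 1388 FPKM in Drosha-deficient and 354791 FPKM in wild-type cells, with 30 of 31 lower. Before Rian 9 of the 12 microRNA rows that entered in mRNA were higher and 2 lower, 6 of the 9 being those in the Rtl1 span, whereas between Rian and Mirg 5 of 10 were higher and 5 lower. In long RNA 17 of the 33 microRNA rows that entered were lower and 8 were higher. Mirg was higher in mRNA, where the calls between Rian and Mirg rest mostly on a 0 in 1 library and are not set against it. In short RNA Mirg was lower, as were all 19 microRNA rows between Rian and Mirg that entered.

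**Figure D5:**
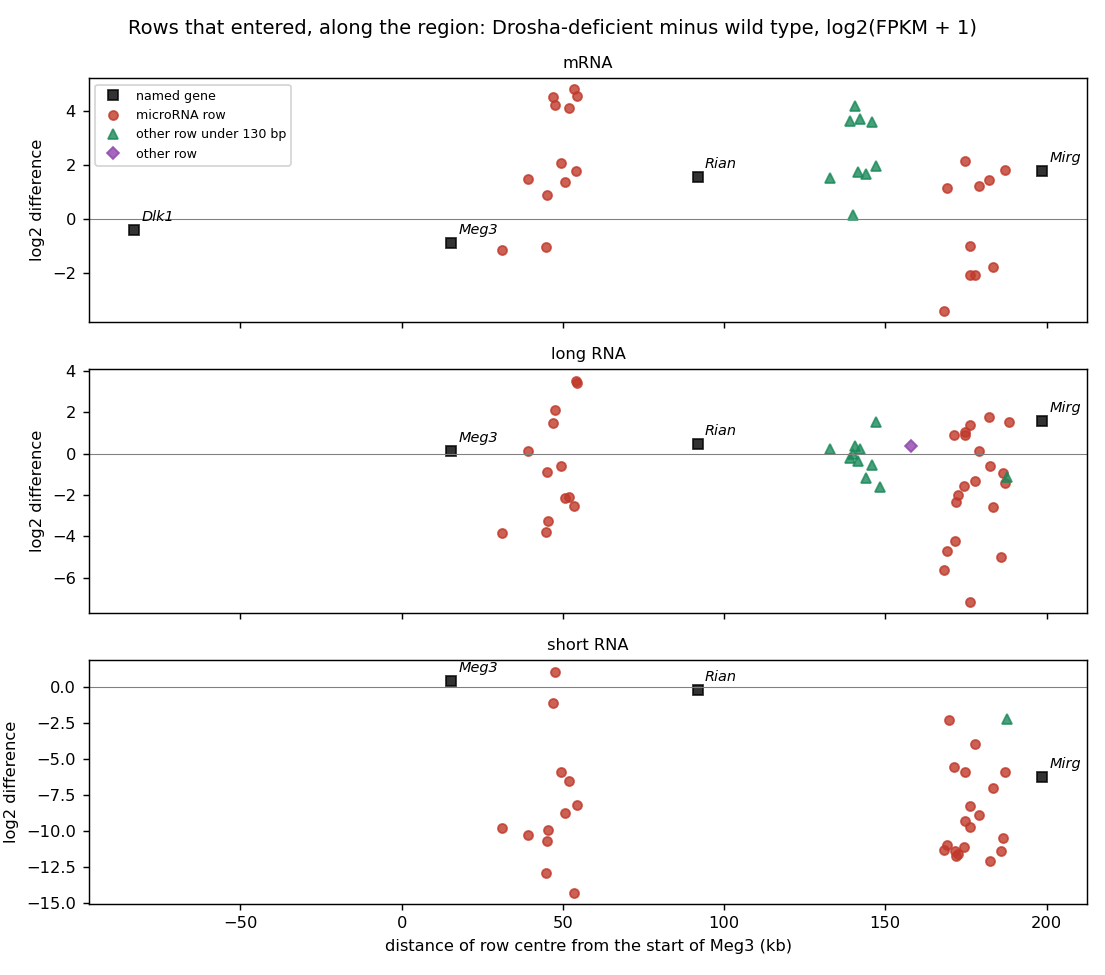
Log2 difference of FPKM + 1, Drosha-deficient minus wild type, of each row that entered in mRNA, long RNA and short RNA, against the distance of the row's centre from the start of Meg3 in kb. Squares are the named genes, circles microRNA rows, triangles other rows under 130 bp and the diamond another row, and the rows near Dio3 lie beyond the right edge. Most circles lie above 0 in mRNA (14 of 22 called higher) and nearly all lie below 0 in short RNA (30 of 31 called lower). In mRNA many microRNA rows are at 0 in 1 library, and such a row is called whenever it enters.

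Dio3 encodes the selenoenzyme that inactivates thyroid hormone, and its row spans chr12:110279068-110281097, 2.03 kb. It had 0.663 FPKM in Drosha-deficient and 0.287 FPKM in wild-type mRNA, and 0.567 FPKM in Drosha-deficient and 0.157 FPKM in wild-type long RNA. Both pairs lay under the minimum of 1 FPKM, so Dio3 did not enter. Converted with the depth estimate above, the mRNA values are about 33 fragments in Drosha-deficient cells (exact Poisson 95% interval 22.7 to 46.3) and 13 in wild-type cells (6.92 to 22.2). Those of long RNA are about 25 fragments in Drosha-deficient (16.2 to 36.9) and 6 in wild-type cells (2.20 to 13.1). Scaled back to FPKM for the depth of each library, the mRNA intervals overlap, 0.461 to 0.941 FPKM in Drosha-deficient and 0.158 to 0.508 FPKM in wild-type cells. Those of long RNA do not, at 0.365 to 0.833 FPKM in Drosha-deficient and 0.0591 to 0.3502 FPKM in wild-type cells. The intervals cover counting error only and compare single libraries. An overlap of such intervals does not show equal levels, so it does not set mRNA apart from long RNA. In short RNA Dio3 was listed at 0 in both. The row of its antisense neighbour Dio3os, named after its values were seen, is merged with Mir1247 in mRNA and short RNA. It had 1.87 FPKM in Drosha-deficient and 0.0356 FPKM in wild-type mRNA (log2 difference 1.47, higher), and in short RNA it was listed at 0 in Drosha-deficient, against 18.97 FPKM in wild-type cells (-4.32, lower). No strand setting is stated. Whether fragments of an antisense RNA such as Dio3os or Nespas were kept apart from those of its overlapping partner was not tested. Within the Rtl1 span, Mir127 on the opposite strand had 402 FPKM and Rtl1 0.00820 FPKM in wild-type long RNA. Of 17 genes of thyroid hormone handling and selenoprotein synthesis that entered in mRNA 2 were higher and 0 lower. Of 16 in long RNA, 0 were called.

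Genes beside the region were mostly not called. Of the 5 nearest expressed genes before Dlk1 (Evl, Yy1, Wars, Wdr25 and Begain) and the 5 after Dio3 (Ppp2r5c, Dync1h1, Hsp90aa1, Wdr20 and Mok), 1 was higher in mRNA and 0 were lower. This was Hsp90aa1, a chaperone, at 1924 FPKM in Drosha-deficient and 907 FPKM in wild-type cells (log2 difference 1.08). The 10 differences in mRNA ran from -0.42 to 1.08 with a median of 0.14. In long RNA 0 of the 9 that entered were called, between -0.30 and 0.90, and in short RNA 0 of 3.

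Of 37 other imprinted genes that entered in mRNA 2 were higher and 6 lower (median log2 difference -0.14), and of 38 in long RNA also 2 were higher and 6 lower (-0.15). Nespas, an antisense RNA of the Gnas locus, was higher, at 6.41 FPKM in Drosha-deficient and 0.721 FPKM in wild-type mRNA. Grb10, which encodes an adaptor of growth factor receptors, was lower, at 7.21 FPKM in Drosha-deficient and 22.1 FPKM in wild-type mRNA. A list of imprint control factors also held Tet genes, Polycomb genes and other chromatin regulators. Of its 25 genes that entered in mRNA 2 were higher and 0 lower, and of 24 in long RNA 1 was higher and 0 lower. Dnmt3b, 1 of the 2 and named after its values were seen, is also among the neural and epiblast markers. Among 16 genes derived from retrotransposon gag like Rtl1, 9 entered in mRNA, of which 1 was lower and 0 higher. Of 6 other nuclear long noncoding RNAs that entered in mRNA 1 was higher, Nespas, and 1 lower, Firre, an X-linked RNA that organises chromatin (3.48 FPKM in Drosha-deficient and 11.3 FPKM in wild-type cells).

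The rows whose levels over the 4 mRNA and long RNA libraries were nearest to each host were found among 14903 rows by the Euclidean distance of log2(FPKM + 1). Nearest to Mirg was Hsp25-ps1, a pseudogene, at a distance of 0.294 (82.1 FPKM in Drosha-deficient and 22.7 FPKM in wild-type mRNA), before Rpl10-ps3 and Mov10, both at 0.530. Nearest to Meg3 were Rps15-ps2 at 0.614, Atp5j at 0.626 and Rps15a at 0.737. The Rian row had no close neighbour, the nearest being mt-Cytb at 1.005, then Ywhae at 1.56 and Rps16-ps2 at 1.60. The pseudogenes share sequence with their parent genes, so their own levels are uncertain.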

How the data were processed

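RNA of 6 libraries, Drosha-deficient and wild type in 3 fractions, was analysed. The authors deposited 1 table per fraction with FPKM per gene row and the log2 fold change of both genotypes, per the file headers. Cuffdiff, Cufflinks 2.1.1, TopHat2 2.0.10 and bcl2fastq 1.8.4 are named, with the build mm10/GRCm38, in the submitters' processing notes. Sources used here do not give the annotation or a strand setting. Per the labels' protocols RNA was split into long and short fractions by kit, mRNA was selected with oligo-dT beads, and libraries were made with a small RNA kit. The deposited log2 value matched the ratio of the FPKM pair to 0.001 in all rows compared.

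From the FPKM, log2 differences with a pseudocount of 1, calls at 2-fold, ratios within libraries and counts over 14 gene lists were computed with Python 3.11.15 and pandas 2.3.3, and the steps were tested on simulated data. Since the deposited FPKM hold no counts, no count model was fitted, and with 1 library per group no p-value was computed. Confidence intervals of fragment numbers are exact Poisson intervals, and they cover counting error only. Sequences are from RefSeq (GRCm38.p6). Named genes are the 6 members, Drosha, the microRNA row with the highest wild-type short RNA level in a member, the 5 nearest expressed genes on each side, up to 2 higher and 2 lower genes per list called in mRNA and long RNA, and the 3 rows nearest to each host; other names are said to be chosen after their values were seen. The members and lists were chosen with earlier results of these data known. Alternatives varied the pseudocount, the minimum, the status filter, the scaling and the fold called.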

Additional observations from a re-analysis of the deposited data

Results flagged for a closer look

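Mirg was called in opposite directions in different fractions, higher in mRNA and long RNA and lower in short RNA. Its log2 difference in mRNA minus that in short RNA was 8.01, and in long RNA minus short RNA 7.84. The Mir127 row, inside the span of Rtl1, was higher in mRNA and lower in the other fractions, and its difference in mRNA exceeded that in long RNA by 6.22 and that in short RNA by 10.7. With 1 library per genotype these differences between fractions were not tested.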

How the results depend on the processing

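No paired analysis was possible because each genotype has 1 library per fraction and the labels give no replicate numbers. Mirg kept its direction and call in each fraction under all 8 alternatives. At a call of 1.5-fold Meg3 was lower in mRNA, so 1 member was lower. With a pseudocount of 5 FPKM the mRNA minus long RNA difference of Meg3 was -0.98 (main -1.001) and the log2 fold of Mirg over Rian in long RNA 0.84 (main 1.22), both under the 2-fold call.

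The background moved more. In mRNA, where 1275 rows were called higher and 1170 lower, 551 rows were higher and 373 lower with a pseudocount of 5 FPKM, 1884 lower with 0.1 FPKM, 779 lower with a minimum of 5 FPKM, and 2798 higher and 2857 lower at 1.5-fold. In long RNA (872 higher and 960 lower) the same choices gave 315 higher and 335 lower, 1592 lower, 542 higher, and 1864 higher and 2406 lower. In short RNA (384 higher and 477 lower) 131 were higher and 279 lower with a pseudocount of 5 FPKM, 684 and 730 at 1.5-fold, and 822 and 883 when rows without the OK status entered. The other 129 checks of counts, ratios and differences between fractions kept their side. Of the checks of single genes and list medians 259 did so too, while 11 fell under the size called and 3 passed it. No called value changed sign, but 5 checks of uncalled list medians did. These were the thyroid and selenoprotein list in mRNA (-0.0072 with upper-quartile scaling, main 0.045) and in long RNA (0.0076 with that scaling and 0.039 when centred, main -0.0036), nuclear noncoding RNAs in mRNA (0.22 with a minimum of 5 FPKM, main -0.12), and snoRNA hosts in long RNA (-0.0041 with a pseudocount of 5 FPKM, main 0.00066). Dio3 and, in long RNA, Dlk1 have no main value, as they lie under the minimum. Depth limits Rtl1 and Dio3, with few or no fragments, and the lack of replicates limits every value.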
